A study of Rattus norvegicus with 9 samples.

Results

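Voltage-gated and potassium ion channels were taken as the probe sets whose single gene symbol begins with Kcn (potassium channels), Scn and a digit (voltage-gated sodium channels), Cacn (voltage-gated calcium channels) or Hcn and a digit (pacemaker channels). This gave 125 probe sets of 78 genes, out of 8740 probe sets and 4736 named genes on the array. Potassium channels made up 54 genes and 82 probe sets, calcium channels 14 genes and 26 probe sets, and sodium channels 10 genes and 17 probe sets, and no Hcn gene was represented. The tissue was non-tumor proximal colon of male Sprague-Dawley rats kept for life on a diet whose protein was casein (CAS, the control), whey protein hydrolysate (WPH) or soy protein isolate (SPI). The rats of all 3 groups had been injected as adults with azoxymethane (AOM), a colon carcinogen, and the colons were collected 40 weeks later. Each diet was represented by 1 RNA pool of 7 rats, from 8 µg of which 3 labelled targets were prepared side by side, so that the 3 arrays of a diet repeat the labelling and hybridization of 1 pool. Every p-value below therefore compares pools and measures technical spread, not the spread between rats.

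Ion channels are membrane proteins that let ions pass down their electrochemical gradient. In the gut wall, L-type calcium channels carry the calcium that makes smooth muscle contract, potassium channels set the resting potential of muscle and nerve and end each depolarization, and voltage-gated sodium channels carry the action potentials of enteric and sensory neurons. In the epithelium, potassium channels of the basolateral membrane keep the cell interior negative, which drives chloride secretion and sodium uptake. Many of these channels consist of a pore-forming subunit and auxiliary subunits that set its gating and its number at the membrane.

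The values were MAS 5.0 signals, scaled so that each array averaged 500. Averaged over the arrays of a diet, the signal came to 100 or more with 1 or more diets for 48 channel probe sets of 38 genes, and these were tested. The other 40 genes lay under 100 in every diet and were counted as near background, namely 31 potassium, 5 sodium and 4 calcium channel genes. Just above the limit were Kcnh7, Kcna4 and Kcnh6, with highest diet means of 104, 107 and 116. Just under it were Kcnj4, Kcnc4 and Cacna1e, with highest diet means of 97.7, 96.7 and 92.8.

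For 14 of the 20 channel genes that passed the test in at least 1 comparison, RefSeq promoter sequence of the GRCr8 rat assembly was at hand. The last 120 bases before the annotated start are shown, 5′ to 3′, for the 2 of these genes that were lower with SPI and WPH, Kcnk5 and Kcnj15, and for the pore and the auxiliary subunit of the L-type calcium channel that were higher, Cacna1c and Cacna2d1. Capitals mark GGGCGG (a GC box) and CCAAT or its reverse complement.
Kcnk5, chr15:4171505-4171624 (+ strand): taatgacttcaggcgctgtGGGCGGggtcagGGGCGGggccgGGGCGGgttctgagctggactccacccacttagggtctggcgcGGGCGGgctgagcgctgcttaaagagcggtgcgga
Kcnj15, chr11:48070830-48070949 (+ strand): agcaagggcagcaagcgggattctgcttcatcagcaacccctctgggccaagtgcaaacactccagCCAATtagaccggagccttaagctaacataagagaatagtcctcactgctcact
Cacna1c, chr4:154051749-154051868 (- strand): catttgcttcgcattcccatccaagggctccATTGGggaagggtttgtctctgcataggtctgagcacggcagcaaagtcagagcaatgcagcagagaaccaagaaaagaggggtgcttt
Cacna2d1, chr4:20329863-20329982 (- strand): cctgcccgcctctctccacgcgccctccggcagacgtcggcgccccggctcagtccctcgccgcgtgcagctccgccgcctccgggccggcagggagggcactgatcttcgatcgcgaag
Kcnk5 held 4 GC boxes in these 120 bases, Kcnj15 a CCAAT on the forward strand and Cacna1c one on the reverse strand. Cacna2d1 held neither motif in the printed stretch, and its 250 bases had the highest GC content of the 4, 76.8% against 62.8% in Kcnk5, 54.4% in Cacna1c and 50.8% in Kcnj15. Over the 250 bases before the start and on both strands, GGGCGG was found in 5 of the 12 genes that were higher with WPH (Cacna1b, Cacna2d1, Cacnb3, Kcnj8 and Scn7a), in 46.6% of the 58 channel genes with a promoter and in 30.5% of 33469 rat promoters. CCAAT was found in 2 of the 12 (Cacna1b and Cacna1c), in 25.9% of channel genes and in 34.0% of all promoters. TATAAA was found in none of the 12, in 3.45% of channel genes and in 12.9% of all promoters. The CArG box, a smooth muscle motif that can overlap a CCAAT, was found in none of the 58 channel genes and in 1.5% of all promoters.

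The channels moved mainly upwards with WPH. Of the 48 tested probe sets, 20 of 17 genes were higher with WPH than with CAS at an adjusted p under 0.05 in limma, and 3 were lower, Kcnk1, Kcnk5 and Kcnj15. That is 41.7% higher and 6.25% lower, where 20.9% and 17.9% of all 5606 probe sets tested were higher and lower. Without the filter on low signals, 21 of the 125 channel probe sets were higher and 3 lower, or 16.8% and 2.4%, against 12.8% and 11.0% of all 8740. The 21 did not hold all of the 20. Cacnb3 and Kcnd2 did not pass without the filter (limma adjusted p = 0.0655 and 0.0784). Probe sets of Kcnc2, Kcns1 and Scn3a that lay under 100 on every array came in (limma adjusted p = 0.0244, 0.0263 and 0.0254). Of the 20, Kcnj12, Kcnk3, Kcnd2, Scn9a and the dimmer Cacnb2 probe set had a CAS mean under 100. They were thus tested only through diets in which they were higher. Without the filter their limma adjusted p for WPH against CAS were 0.00342, 0.00177, 0.0784, 0.0103 and 0.0160 in this order. The median log2 change of the 125 was 0.40, where it was 0.08 over all probe sets. The genes that were higher included the smooth muscle L-type calcium channel with its auxiliary subunits, potassium channels of muscle and nerve, and sodium channels of neurons.

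With SPI fewer channels passed. Of the 48, 7 were higher with SPI than with CAS and the same 3 genes were lower, or 14.6% and 6.25%, where 12.0% and 10.2% of all tested probe sets were higher and lower. Without the filter the counts were again 7 and 3, or 5.6% and 2.4% of the 125, against 6.91% and 6.17% of all 8740. The share higher with SPI was therefore near that of all probe sets. Between SPI and WPH, 2 probe sets were higher with SPI (Kcnk1 and Kcnk5) and 6 lower, or 4.17% and 12.5%, where 10.1% and 9.83% of all tested probe sets were higher and lower. Because SPI and WPH were compared with the same CAS arrays, these counts are not independent of one another. All 20 probe sets that were higher with WPH had their mean for SPI between those for CAS and WPH. In 19 of the 20, every WPH array lay above every CAS array, and in 16 every SPI array did. The 20 were picked for a difference on these same WPH and CAS arrays, which largely fixes how rarely the 2 overlap. The share of all probe sets with such an order or without overlap was not counted, so that these counts are descriptive. The ratio of the means reached 2-fold in 6 of the 20, in Cacna2d1, Kcnk3, Scn11a, Cacna1c, Scn7a and Kcnh2.

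**Figure D1:**
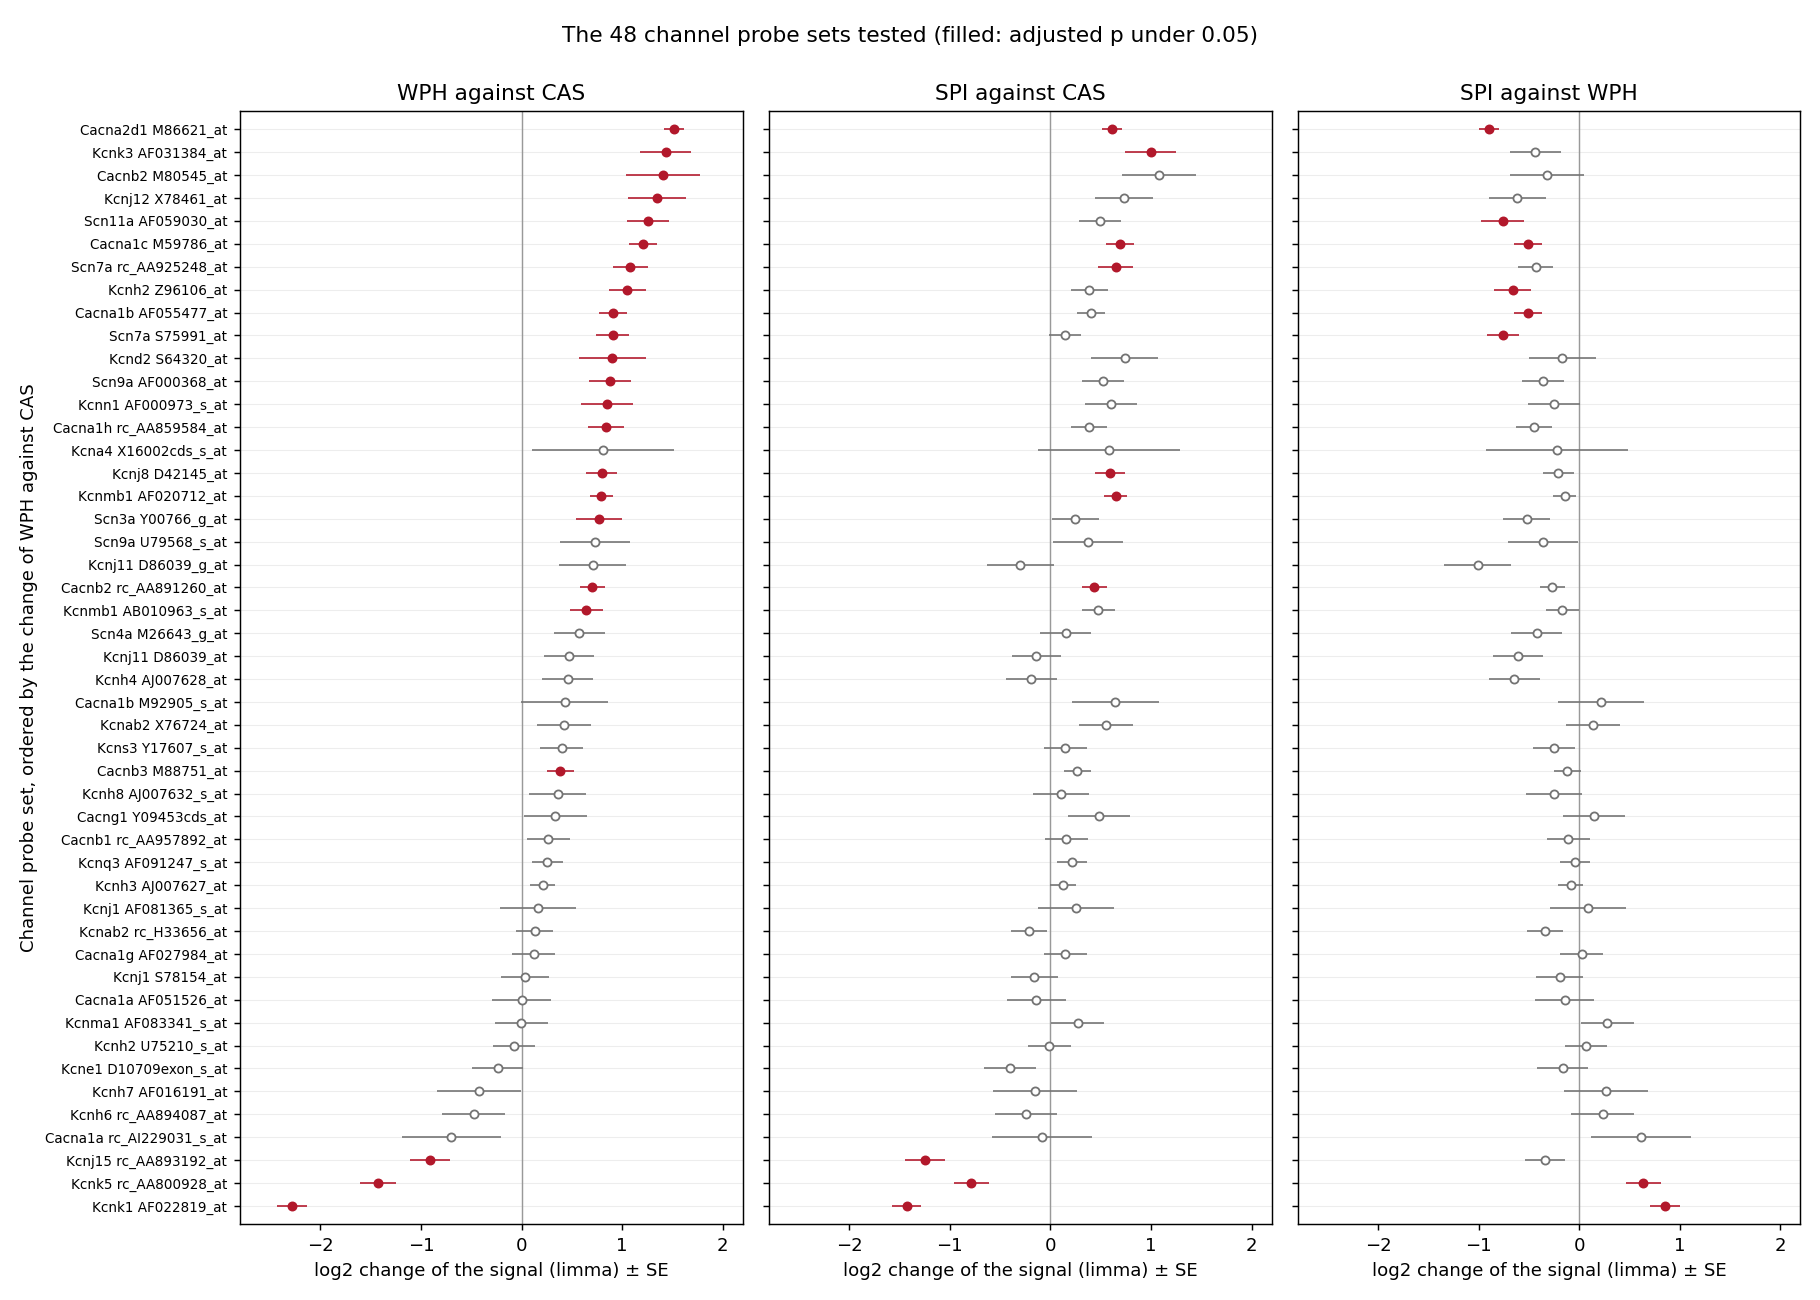
Log2 change of the signal (x axis, limma estimate ± SE, 3 arrays per diet) of the 48 channel probe sets tested (y axis), for WPH against CAS (left), SPI against CAS (middle) and SPI against WPH (right), with filled points at an adjusted p under 0.05. With WPH against CAS 20 points lie to the right and are filled, whereas Kcnk1, Kcnk5 and Kcnj15 lie to the left, and with SPI against CAS 7 and 3 are filled.

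By a time of day in the settings files of the instrument, the arrays fell into 3 groups, called wash rounds here. That time stands under a label for the hybridization date, and the date itself was not used. Round 1 held all CAS arrays with WPH replicate 2. Round 2 held the remaining WPH arrays with SPI replicates 1 and 2, and round 3 the last SPI array by itself. SPI and CAS thus shared no round. For WPH against CAS, a block for the round therefore sets WPH replicate 2 alone against the CAS arrays. The comparison of SPI with CAS then runs through the same WPH array. Whether a call was lost to the round or to the fewer arrays cannot be told apart. With the round as a block in the model, 10 channel probe sets were higher with WPH than with CAS, 9 of them among the 20, and 4 were lower, 3 of them the same. That is 20.8% and 8.33% of the 48, where 13.0% and 13.3% of all 5606 tested probe sets were higher and lower with the block. Between SPI and CAS, none was higher (limma, adjusted p under 0.05), while 4 were at an unadjusted p under 0.05, and 2 were lower, of which Kcnk1 was one. Of all tested probe sets, 1.78% were higher and 2.71% lower in this comparison with the block. The methods' t-test after Benjamini-Hochberg adjustment gave 3 higher and 2 lower for SPI against CAS, or 6.25% and 4.17%, where 7.06% and 7.17% of all tested probe sets were higher and lower by it. Between SPI and WPH, Kcnk1 remained higher and Cacna2d1 and Scn7a lower, or 2.08% and 4.17%, where 6.28% and 3.71% of all were higher and lower. All of the calls of each comparison had the same sign with the block as without it. For WPH against CAS, the change with the block is the difference between WPH replicate 2 and the CAS arrays of its round. Those arrays also made the calls, so that the sign is no independent check on the 20 higher and 3 lower probe sets. The comparisons of SPI with the block likewise reuse arrays that made their calls. Of the 7 probe sets that had been higher with SPI than with CAS, the log2 change with the block was larger for Kcnk3 (1.15, 1.00 without it), Cacna1c (0.73 and 0.70) and Scn7a (0.81 and 0.65). It was smaller for Kcnmb1 (0.61 and 0.65), Cacna2d1 (0.50 and 0.62), Kcnj8 (0.39 and 0.59) and above all Cacnb2 (0.11 and 0.44). The rounds and the SPI diet cannot be told apart fully, and below a call that did not pass with the block is given with that adjusted p.

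Single arrays also decided some of the calls. With WPH against CAS, 16 of the 20 higher and all 3 lower calls passed whichever array was left out. The other 4 were Cacnb3 (6 arrays without which it did not pass, adjusted p up to 0.124, namely CAS 1, 2 and 3, SPI 2 and WPH 1 and 3), Kcnd2 (7 arrays, up to 0.182, all but CAS 1 and WPH 2), Kcnn1 (CAS 1, WPH 1 and WPH 3, up to 0.0736) and Scn3a (CAS 1, CAS 3 and WPH 1, up to 0.0768). With SPI against CAS, the higher calls that did not pass were Cacnb2 (all CAS arrays, SPI 1 and SPI 3, up to 0.0911), Scn7a (CAS 1 and 3, SPI 1 and 3, up to 0.0816), Kcnj8 (CAS 2 and SPI 3, up to 0.0607) and Kcnk3 (SPI 1, 0.0535). With SPI against WPH they were Cacna1b (SPI 1, WPH 1 and WPH 3, up to 0.102), Cacna1c (SPI 1 and 2, WPH 2 and 3, up to 0.0866), Kcnh2 (SPI 1 and 2 and all WPH arrays, up to 0.0913), Scn11a (all SPI arrays, WPH 1 and 3, up to 0.0837) and Kcnk5 (SPI 1 and 2 and WPH 2, up to 0.0936). Calls for Kcnk1, Kcnj15 and Cacna2d1 passed each time, in every comparison in which they had been made.

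**Figure D2:**
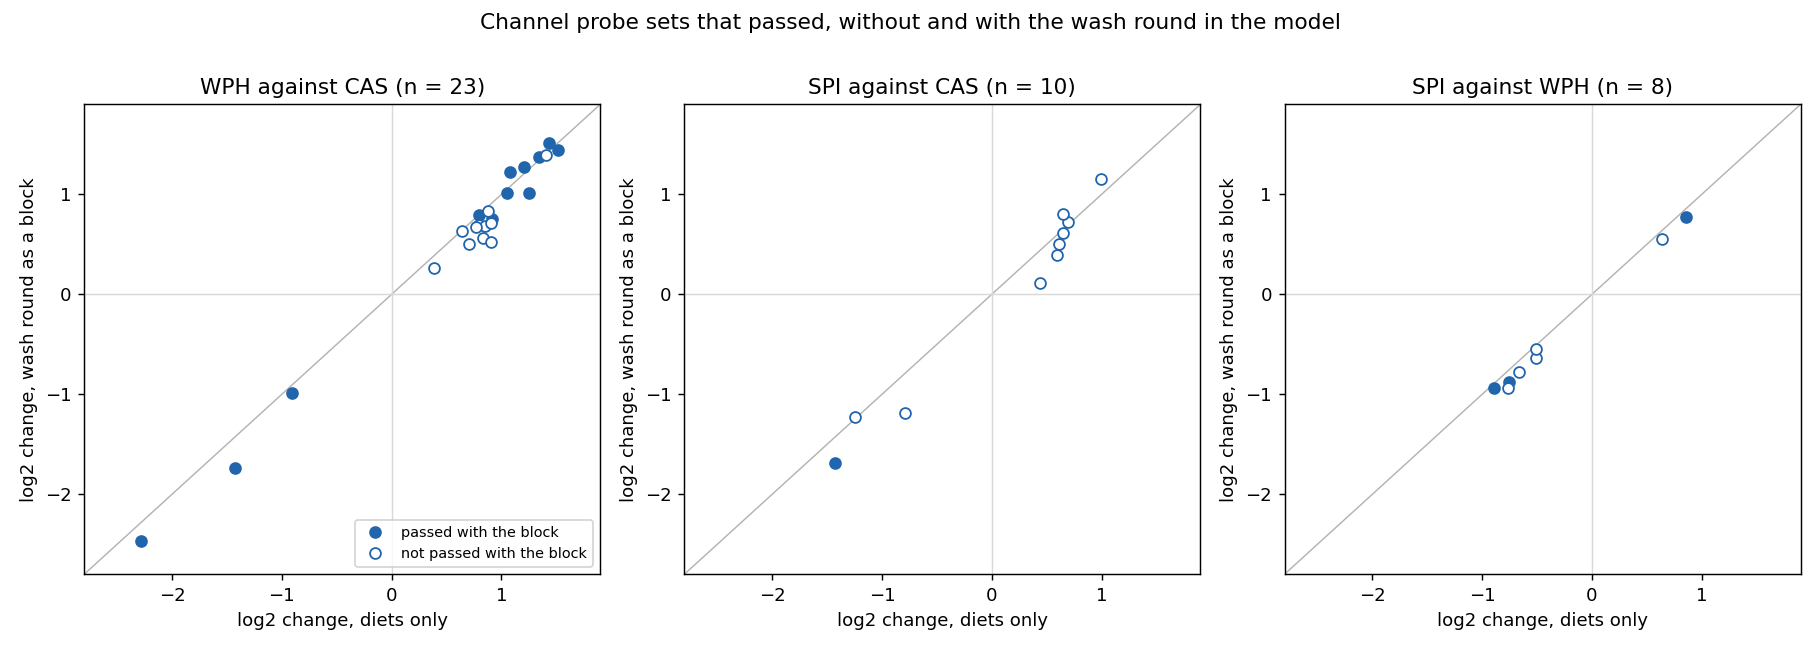
Log2 change of the channel probe sets that passed in each comparison, from the model with diets only (x axis) and with wash round as a block (y axis), 23 points for WPH against CAS, 10 for SPI against CAS and 8 for SPI against WPH, with the line of equality. Filled points passed with the block too, which no higher probe set did for SPI against CAS, and every point keeps its sign.

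Markers of the cell types of the colon wall moved with the same groups. For enteric neurons, 29 markers were on the array and 23 were tested, of which 22 were higher with WPH than with CAS and none was lower. Their summed signal lay between 13878 and 14343 with CAS, between 21901 and 22932 with SPI and between 35489.6 and 38681 with WPH. Chat and Nos1, which define the excitatory and inhibitory motor neurons, lay under 100 in every diet, as did Syt1, Nefh, Map1b and Vsnl1. Of 14 smooth muscle markers, all tested, 11 were higher with WPH and none was lower, and their sum ran from 129500.0 to 131478 with CAS, 183435 to 186667 with SPI and 242764 to 274789 with WPH. Of 24 epithelial markers, none was higher with WPH and 22 were lower, and their sum fell from between 99716 and 107522 with CAS to between 59435 and 61775 with SPI and between 28746 and 30652 with WPH. The 3 diets did not overlap in any of these 3 sums. In RNA of a whole piece of colon, more cells of a type and more RNA per cell cannot be told apart, and the part of the cell makeup in the channel differences was not tested.

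**Figure D3:**
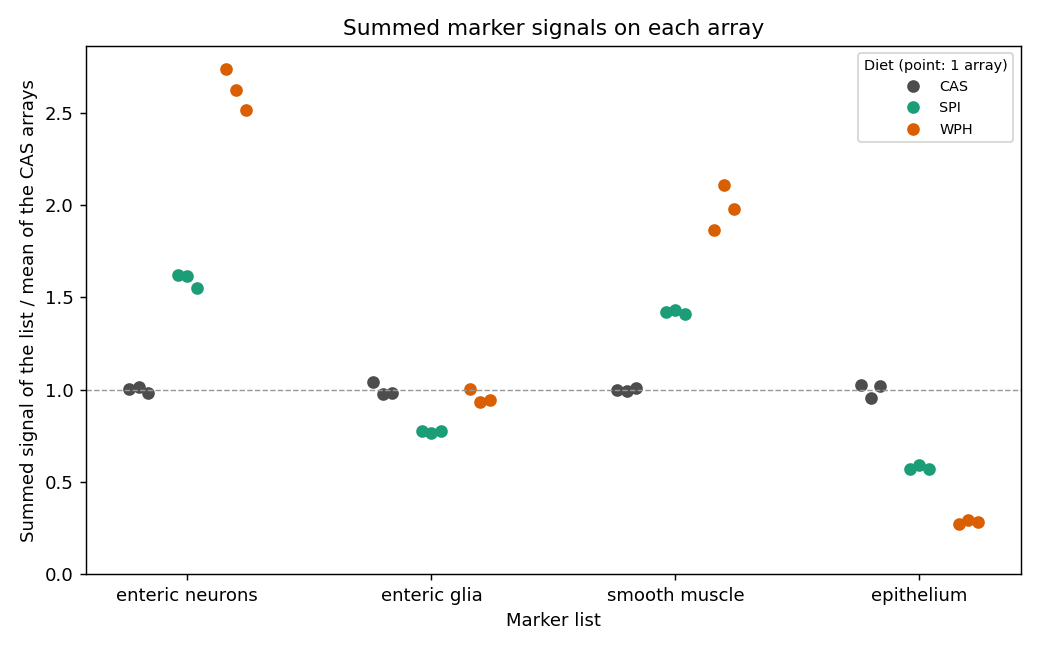
Summed signal of each marker list on each array (y axis, relative to the mean of the 3 CAS arrays), for enteric neurons, enteric glia, smooth muscle and epithelium (x axis), with 1 point per array. The sums of neurons and smooth muscle rise from CAS over SPI to WPH, and those of the epithelium fall. The glial sum is weighted by its brightest gene, Pmp22.

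The other marker lists moved less evenly. Of all 5606 probe sets tested, 20.9% were higher and 17.9% lower with WPH than with CAS. Of 7 glial markers tested, 4 were higher and 1 lower with WPH, and their sums were 6498 to 6957 with CAS, 5114 to 5171 with SPI and 6226 to 6688 with WPH. Of the leukocyte markers, 10 of 15 were higher and 1 lower, of the adipocyte markers 5 of 9 and 1, of the endothelial markers 1 of 5 and 0, of the striated muscle markers 5 of 14 and 0, and of the enteroendocrine markers 2 of 7 and 4. Kit, the receptor that marks interstitial cells of Cajal, was the tested one of that list and did not pass. As a sign of RNA or target length, the 3′ to 5′ signal ratio of β-actin also moved with diet, lying at 1.83 to 1.88 with CAS, 2.14 to 2.36 with SPI and 2.53 to 3.50 with WPH, while that of GAPDH overlapped between diets, at 1.34 to 1.71, 1.48 to 1.65 and 1.57 to 1.70. Its part in the channel differences was not tested.

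Among the potassium channels, 8 probe sets of 7 genes were higher and 3 were lower with WPH, out of 28 tested. Of all 5606 probe sets tested, 20.9% were higher and 17.9% lower in this comparison. The 3 lower ones belonged to a 2-pore channel pair and an inward rectifier. Kcnk1 encodes TWIK-1, a 2-pore channel that carries background potassium current, and its probe set AF022819_at fell most. The signals were 546, 566 and 513 on the 3 CAS arrays, 211, 196 and 197 with SPI and 112, 97.9 and 126 with WPH. The 3 diets did not overlap, with SPI in the middle. Kcnk1 was 4.84-fold lower with WPH than with CAS (log2 change -2.28 ± 0.15 SE, limma adjusted p = 4.97e-07) and 2.69-fold lower with SPI (log2 change -1.43 ± 0.15, limma adjusted p = 4.89e-05). It was 1.80-fold higher with SPI than with WPH (limma adjusted p = 0.00187), and it was the one channel that passed in all 3 comparisons with the wash round as a block.

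Kcnk5 encodes TASK-2, a 2-pore channel that opens at alkaline pH and is known from transporting epithelia. Its signals (rc_AA800928_at) were 848, 587 and 737 with CAS, 409.8, 463 and 377 with SPI and 288, 214 and 306 with WPH, again without overlap and in the same order as for Kcnk1. The difference was 2.69-fold between CAS and WPH (log2 change -1.43 ± 0.18, limma adjusted p = 6.63e-05). With SPI it was 1.74-fold lower than with CAS (log2 change -0.79 ± 0.18, limma adjusted p = 0.00805, 0.0609 with the wash round as a block) and 1.54-fold higher than with WPH (limma adjusted p = 0.0256, 0.113 with the block). The promoter with 4 GC boxes printed above is that of this gene.

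Kcnj15, the inward rectifier Kir4.2, differed from these in its order. Its signals (rc_AA893192_at) were 447, 401 and 385 with CAS, 240.2, 151 and 141 with SPI and 243, 207 and 207 with WPH, so that SPI and WPH overlapped and both lay under CAS. It was 1.88-fold lower with WPH (log2 change -0.91 ± 0.20, limma adjusted p = 0.00354) and 2.32-fold lower with SPI (log2 change -1.25 ± 0.20, limma adjusted p = 0.00107, 0.106 with the wash round as a block). Beside these 3 genes, the epithelial markers were lower in the same arrays, as given above.

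Kcnk3, or TASK-1, an acid-sensitive 2-pore channel that sets the resting potential, went the other way from Kcnk1 and Kcnk5. The signals of AF031384_at were 54.2, 108 and 97.9 with CAS, 172, 166 and 159.7 with SPI and 234, 238 and 204 with WPH, without overlap between the diets. CAS was under 100 on every array but the brightest, so that each fold is also given with signals under 100 set to 100. It was 2.60-fold higher with WPH, or 2.19-fold so set (log2 change 1.43 ± 0.25, limma adjusted p = 0.000865) and 1.92-fold higher with SPI, or 1.62-fold (log2 change 1.00 ± 0.25, limma adjusted p = 0.0153, 0.271 with the wash round as a block). A second probe set of the gene, rc_AA925138_s_at, lay between 5.8 and 16.0 on all 9 arrays and was not tested.

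Of the inward rectifiers, Kcnj8 and Kcnj12 were higher. Kcnj8 encodes Kir6.1, the pore of the ATP-sensitive potassium channel of smooth muscle. Its signals were 441, 319.6 and 433 with CAS, 529.9, 626 and 628 with SPI and 645, 635 and 782 with WPH, with SPI and WPH each above CAS on every array. The rise was 1.73-fold with WPH (log2 change 0.80 ± 0.15, limma adjusted p = 0.00147, 0.0572 with the wash round as a block) and 1.495-fold with SPI (log2 change 0.59 ± 0.15, limma adjusted p = 0.0168, 0.564 with the block). Kcnj12, the strong inward rectifier Kir2.2, had signals of 49.0, 64.7 and 46.2 with CAS, 101, 72.6 and 91.2 with SPI and 157, 137 and 112 with WPH. Its mean reached 100 with WPH alone, so that it was tested only because of the diet in which it was highest. All CAS arrays were under 100, and the rise with WPH was at least 1.35-fold when these were set to 100 (limma adjusted p = 0.00306). The comparison of SPI with CAS did not pass (adjusted p = 0.0972).

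The calcium-activated potassium channels were represented by the accessory subunit of the large-conductance channel and by a small-conductance channel. Kcnmb1, the β1 subunit that raises the calcium sensitivity of the large-conductance channel in smooth muscle, was read by a pair of probe sets. The signals of AF020712_at were 808, 888 and 667 with CAS, 1157, 1229.6 and 1300.0 with SPI and 1329.9, 1359.7 and 1381 with WPH, and the diets did not overlap. It was 1.72-fold higher with WPH (log2 change 0.79 ± 0.11, limma adjusted p = 0.000209) and 1.56-fold higher with SPI (log2 change 0.65 ± 0.11, limma adjusted p = 0.00191, 0.192 with the wash round as a block). The other probe set, AB010963_s_at, ran from 356, 233 and 348 with CAS to 410.2, 412 and 462 with SPI and 462, 476 and 502 with WPH. It rose 1.54-fold with WPH (limma adjusted p = 0.00841, 0.0989 with the block) and did not pass with SPI (adjusted p = 0.0585). Both probe sets thus gave the same direction. Kcnma1, the pore that β1 binds, passed in no comparison, with signals of 139, 118 and 95.1 with CAS, 122, 164 and 138 with SPI and 152, 117 and 86.4 with WPH, and its log2 change between WPH and CAS was -0.00 (adjusted p = 0.991). These signals lay close to the limit of 100. The gene's other probe sets had means under 100 in every diet and were not tested, so that a change of Kcnma1 could have been missed.

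Kcnn1, the small-conductance channel SK1 of neurons, had signals of 68.5, 141 and 104 with CAS, 139.8, 154 and 164 with SPI and 198, 161 and 185 with WPH. Its rise with WPH was 1.73-fold, or 1.58-fold with signals under 100 set to 100, with every WPH array above the CAS arrays (limma adjusted p = 0.0213, 0.247 with the wash round as a block), while SPI overlapped CAS.

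Of the voltage-gated potassium channels, Kcnh2 and Kcnd2 passed. Kcnh2 encodes erg1, which repolarizes cardiac and smooth muscle cells. The signals of Z96106_at were 299.9, 187 and 295 with CAS, 305, 324 and 377 with SPI and 511, 513 and 562 with WPH, and the diets did not overlap. It was 2.03-fold higher with WPH than with CAS (log2 change 1.05 ± 0.18, limma adjusted p = 0.000778) and 1.58-fold lower with SPI than with WPH (limma adjusted p = 0.0258, 0.0762 with the wash round as a block). A second probe set of the gene, U75210_s_at, did not pass, with 483, 401 and 439 with CAS, 487, 418 and 409.9 with SPI and 424, 294 and 579 with WPH (log2 change -0.08 ± 0.21, adjusted p = 0.802), so that the change of Kcnh2 is uncertain. Kcnd2, or Kv4.2, which carries the transient A-type current, had signals of 142, 83.6 and 60.8 with CAS, 148, 122 and 184 with SPI and 226, 129 and 162 with WPH. It was the one higher probe set whose CAS and WPH arrays overlapped, and it stood closest to the limit (1.81-fold higher with WPH, or 1.51-fold with signals under 100 set to 100, log2 change 0.90 ± 0.33, limma adjusted p = 0.0493, 0.469 with the wash round as a block). Its other probe set lay under 100 on every array.

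**Figure D4:**
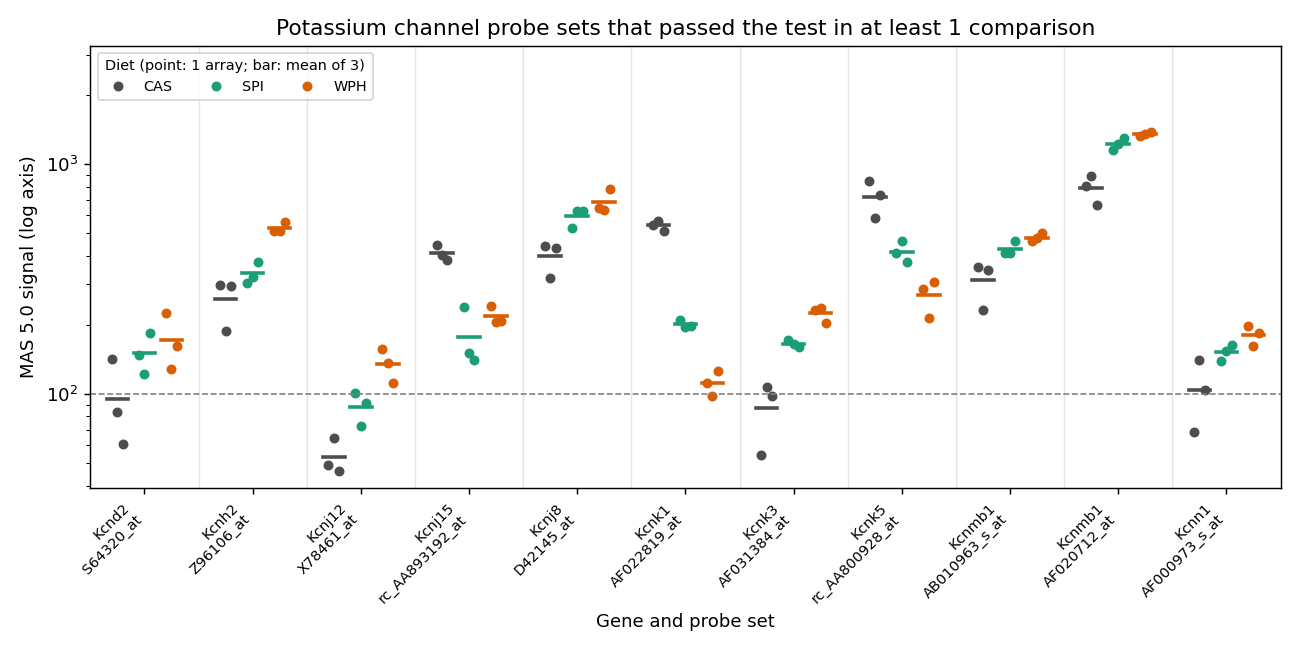
MAS 5.0 signal on each array (y axis, log scale, dashed line at 100) of the 11 potassium channel probe sets that passed in at least 1 comparison (x axis), with 1 point per array, a bar at the mean of 3 and CAS, SPI and WPH side by side. Kcnj15, Kcnk1 and Kcnk5 lie highest with CAS and the others highest with WPH, and heights are to be compared within a probe set, not between probe sets.

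Among the calcium channels, 7 probe sets of 6 genes were higher with WPH out of 13 tested, and none was lower. The shares over all probe sets tested were 20.9% higher and 17.9% lower. Of the pore-forming subunits, Cacna1c encodes Cav1.2, the L-type channel through which calcium enters smooth muscle cells. The signals of M59786_at were 510.5, 599 and 694 with CAS, 1002, 853 and 1055 with SPI and 1210.0, 1440.1 and 1499 with WPH. They rose from diet to diet without overlap. The rise was 2.30-fold with WPH (log2 change 1.21 ± 0.14, limma adjusted p = 4.10e-05) and 1.61-fold with SPI (log2 change 0.70 ± 0.14, limma adjusted p = 0.00433, 0.193 with the wash round as a block). SPI was 1.43-fold lower than WPH (limma adjusted p = 0.0250, 0.1005 with the block). The gene's other 2 probe sets lay under 100 on every array.

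Cacna1b encodes Cav2.2, the N-type channel that triggers transmitter release at nerve endings. The signals of AF055477_at were 198, 195 and 179.5 with CAS, 229, 259.9 and 269 with SPI and 365, 322 and 392 with WPH, without overlap. It was 1.88-fold higher with WPH than with CAS (log2 change 0.91 ± 0.14, limma adjusted p = 0.000334) and 1.42-fold lower with SPI than with WPH (limma adjusted p = 0.0259, 0.0524 with the wash round as a block). Its second probe set, M92905_s_at, varied more within a diet, with 157, 85.1 and 205 for CAS, 221, 216 and 220.5 for SPI and 310.2, 244 and 88.1 for WPH, and did not pass (adjusted p = 0.469). Cacna1h, the T-type channel Cav3.2 that opens near the resting potential, had signals of 131, 167 and 155 with CAS, 180.1, 189 and 222 with SPI and 305, 223 and 284 with WPH. WPH lay above CAS on every array, 1.79-fold by the means (limma adjusted p = 0.00321, 0.111 with the block). Cacna1g, the related T-type channel Cav3.1, gave 225, 212 and 218 with CAS and 175, 228 and 334 with WPH and did not pass (adjusted p = 0.692).

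The largest log2 rise among the channel probe sets tested was that of an auxiliary calcium channel subunit, Cacna2d1 or α2δ-1, which brings the pore to the membrane and binds gabapentin. Its signals (M86621_at) were 1661, 1788 and 2077 with CAS, 2612, 2984 and 2853 with SPI and 5389, 4982 and 5326 with WPH. The means were 1842, 2816 and 5232 with CAS, SPI and WPH, with SDs of 213, 189 and 219, and the diets did not overlap. It was 2.84-fold higher with WPH (log2 change 1.51 ± 0.10, limma adjusted p = 6.07e-07) and 1.53-fold higher with SPI (log2 change 0.62 ± 0.10, limma adjusted p = 0.00113, 0.225 with the wash round as a block). SPI was 1.86-fold lower than WPH (log2 change -0.89 ± 0.10, limma adjusted p = 8.96e-05), and this call passed with the block too.

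The β subunits, which bind the pore inside the cell and promote its delivery to the membrane, were higher too. For Cacnb2, rc_AA891260_at gave 329.8, 349 and 364 with CAS, 467, 459.6 and 486 with SPI and 639.8, 492 and 576 with WPH, without overlap. It was 1.64-fold higher with WPH (limma adjusted p = 0.000835, 0.0552 with the wash round as a block) and 1.35-fold higher with SPI (limma adjusted p = 0.0259, 0.843 with the block). The other Cacnb2 probe set, M80545_at, gave 30.5, 59.0 and 92.0 with CAS, 115, 139 and 97.3 with SPI and 137, 144 and 155 with WPH, at least 1.45-fold higher with WPH with the CAS arrays set to 100 (limma adjusted p = 0.0101, 0.102 with the block). Both Cacnb2 probe sets therefore lay higher with WPH on every array. Cacnb3 gave 246, 272 and 264 with CAS, 281, 315 and 347 with SPI and 364, 313 and 343 with WPH, where SPI overlapped WPH and both lay above CAS, a rise with WPH of 1.31-fold (limma adjusted p = 0.0417, 0.354 with the block). Cacnb1 and Cacng1, of skeletal muscle channels, did not pass in any comparison.

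Cacna1a, the P/Q-type channel of nerve endings, did not pass in the model of the diets alone, but its probe set rc_AI229031_s_at was lower with WPH and with SPI when the wash round was added as a block. The signals were 432, 502 and 523 with CAS, 489, 406 and 481 with SPI and 586, 101 and 450.1 with WPH. WPH replicate 2, the array that shared a round with CAS, stood alone at 101. The value of -2.27 on the log2 scale with the block rested on that array, as every such value of WPH against CAS did. The second Cacna1a probe set gave 120.3, 146 and 107 with CAS, 159, 119 and 74.8 with SPI and 143, 103 and 128 with WPH.

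Of the sodium channels, 5 probe sets of 4 genes were higher with WPH out of 7 tested, and none was lower. The shares over all probe sets tested were 20.9% higher and 17.9% lower. Scn11a encodes Nav1.9, which carries a persistent current in sensory and enteric neurons. Its signals (AF059030_at) were 178, 158 and 104 with CAS, 189, 199 and 218 with SPI and 379, 288 and 365 with WPH. WPH stood apart from both other diets. The difference was 2.35-fold from CAS (log2 change 1.26 ± 0.21, limma adjusted p = 0.000604) and 1.70-fold from SPI (limma adjusted p = 0.0260, 0.0561 with the wash round as a block), while SPI against CAS did not pass (adjusted p = 0.124).

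Scn9a and Scn3a encode Nav1.7 and Nav1.3, both channels of neurons. For Scn9a, AF000368_at gave 103, 104 and 91.3 with CAS, 135, 128 and 167 with SPI and 155, 177 and 220.1 with WPH, 1.85-fold higher with WPH, or 1.80-fold with signals under 100 set to 100 (limma adjusted p = 0.00593, 0.0735 with the wash round as a block). Its second probe set, U79568_s_at, gave 97.5, 48.6 and 56.1 with CAS, 68.4, 99.4 and 85.6 with SPI and 100.3, 140.4 and 86.6 with WPH. These overlapped, and the probe set did not pass (log2 change 0.73 ± 0.35, adjusted p = 0.122). For Scn3a, Y00766_g_at gave 159.8, 201 and 149 with CAS, 268, 142 and 209.6 with SPI and 336, 268 and 264 with WPH, 1.70-fold higher with WPH (limma adjusted p = 0.0207, 0.220 with the block). All WPH arrays lay above the CAS arrays for both genes, whereas the SPI arrays of Scn3a overlapped both other diets. A further Scn3a probe set lay between 4.1 and 23.9 on all arrays.

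Scn7a encodes Nax, a relative of the voltage-gated channels that responds to the sodium concentration and is known from glia and peripheral nerve. The signals of rc_AA925248_at were 1108, 1705 and 1450.4 with CAS, 2368, 1899.5 and 2346 with SPI and 3343, 3259 and 2380.0 with WPH. Those of S75991_at were 436, 366 and 292 with CAS, 431, 355 and 412 with SPI and 707, 588 and 735 with WPH. The first rose stepwise over the diets, whereas in the second SPI overlapped CAS and WPH stood above both. With WPH against CAS, both were higher, 2.11-fold (log2 change 1.08 ± 0.17, limma adjusted p = 0.000467) and 1.86-fold (limma adjusted p = 0.000955, 0.0564 with the wash round as a block). With SPI against CAS, rc_AA925248_at was 1.55-fold higher (limma adjusted p = 0.0206, 0.253 with the block) and S75991_at did not pass (adjusted p = 0.586). With SPI against WPH, S75991_at was 1.69-fold lower (limma adjusted p = 0.00700), also with the block, and rc_AA925248_at did not pass (adjusted p = 0.112).

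**Figure D5:**
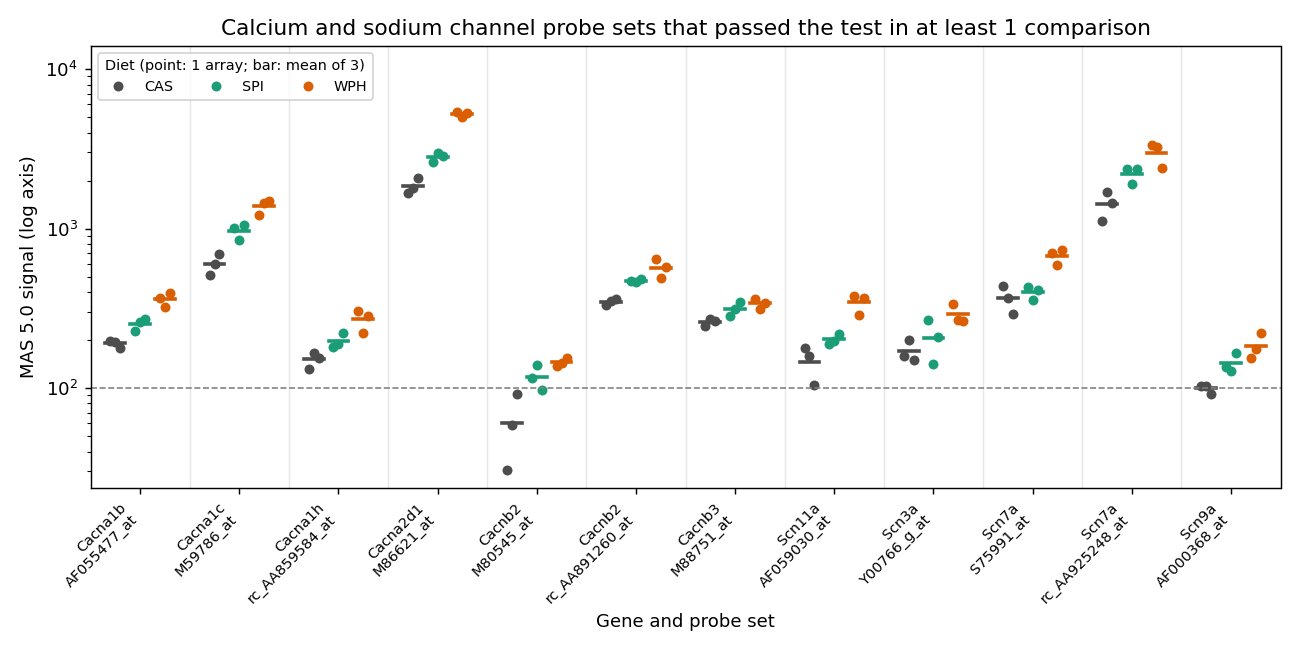
MAS 5.0 signal on each array (y axis, log scale, dashed line at 100) of the 12 calcium and sodium channel probe sets that passed in at least 1 comparison (x axis), with 1 point per array, a bar at the mean of 3 and CAS, SPI and WPH side by side. All 12 means rise from CAS over SPI to WPH, most steeply for Cacna2d1, and heights are to be compared within a probe set, not between probe sets.

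The other 25 tested probe sets passed in no comparison, and for 18 genes none that was tested passed. Their log2 changes ran from -0.70 to 0.81 with WPH against CAS (smallest adjusted p = 0.099998 in limma), from -0.40 to 0.65 with SPI against CAS (smallest 0.174) and from -1.01 to 0.61 with SPI against WPH (smallest 0.0556). They included the voltage-gated channels Kcna4, Kcnh3, Kcnh4, Kcnh6, Kcnh7, Kcnh8, Kcnq3 and Kcns3, the inward rectifiers Kcnj1 and Kcnj11, the auxiliary subunits Kcnab2 and Kcne1, and the skeletal muscle sodium channel Scn4a. Kcnh3, a channel of brain neurons, gave 774, 807 and 723 with CAS and 902, 750.2 and 1031 with WPH, which overlap. Kcnq3, a subunit of the M-current of neurons, gave 159.8, 167 and 164 with CAS and 204, 184 and 198 with WPH, which do not overlap but differ by a log2 change of only 0.26 ± 0.15 (adjusted p = 0.213). Kcnj11, the pore of the ATP-sensitive channel of pancreatic islets and striated muscle, gave 324, 249 and 239 with CAS and 366, 384 and 363 with WPH in its brighter probe set (adjusted p = 0.162). Its dimmer probe set gave 82.1, 59.1 and 92.1 with CAS and 113, 168 and 102 with WPH (adjusted p = 0.119). In both Kcnj11 probe sets every WPH array lay above every CAS array, though neither passed.

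The 40 genes near background were spread over all families. Among the potassium channels they were the voltage-gated Kcna1, Kcna2, Kcna3, Kcna5, Kcna6, Kcnb2, Kcnc1, Kcnc2, Kcnc4, Kcnd3, Kcnf1, Kcng1, Kcnh1, Kcnh5, Kcnq1, Kcns1 and Kcnv1, the auxiliary Kcnab1 and Kcnab3, the inward rectifiers Kcnj2, Kcnj3, Kcnj4, Kcnj5, Kcnj6, Kcnj9, Kcnj10, Kcnj13, Kcnj14 and Kcnj16, and the ion-activated Kcnn3 and Kcnt1. Kcnq1, the basolateral channel of secreting crypts, was thus not measurable here. The sodium channels among them were Scn1a, Scn2a, Scn2b, Scn8a and Scn10a, and the calcium channels Cacna1d, Cacna1e, Cacna1s and Cacnb4. A signal under 100 is not shown to be absence of the transcript, because detection calls were not used here.

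Genes that handle the same ions outside the channel families moved in both directions with WPH, as all tested probe sets did. Of all 5606, 20.9% were higher and 17.9% lower with WPH than with CAS, or 13.0% and 13.3% with the wash round as a block. The counts below are to be read beside these shares. Of 6 sodium pump genes tested, 2 were higher and 2 lower, and all 4 passed with the wash round as a block too. Atp1b1, the β1 subunit of the pump, had signals of 12341, 11369 and 13399 with CAS, 7812, 9786 and 7979.7 with SPI and 4906, 7063 and 6510.4 with WPH, a difference of 2.01-fold between CAS and WPH (limma adjusted p = 0.000123). Atp1b3, the β3 subunit, moved opposite, with 1757, 1785 and 1722, 2644, 2473 and 2634 and 3559.8, 3339 and 3278, 1.93-fold higher (limma adjusted p = 3.03e-06). Fxyd4 was lower (log2 change -0.99) and Fxyd1 higher (log2 change 0.60), both being small regulators of the pump.

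Of 4 chloride channel genes tested, none was higher and 2 were lower, with the block too. Clca4, a calcium-activated chloride channel regulator, gave 5496, 7733 and 5309 with CAS, 8828, 7424 and 9482 with SPI and 1343, 824 and 825 with WPH. Clca4 was 6.20-fold lower with WPH (limma adjusted p = 1.51e-06), while SPI overlapped CAS, and Clcn3, an exchanger of intracellular membranes, was 2.04-fold lower. Of 13 genes for calcium release and calcium pumps, 4 were higher and 3 lower, of which 2 and 2 passed with the block. Pln, the phospholamban that restrains the calcium pump of muscle, was 2.27-fold higher (limma adjusted p = 0.00127) and Calm2, a calmodulin gene, 1.99-fold higher (limma adjusted p = 8.09e-07). Atp2a3, the calcium pump SERCA3 known from epithelium and blood cells, was 2.03-fold lower (limma adjusted p = 0.000172) and Itpr3, an inositol trisphosphate receptor, 1.96-fold lower (limma adjusted p = 3.80e-05).

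Of 9 other cation channel genes tested, 5 were higher and 2 lower, and with the wash round as a block none of the 5 and both of the 2 passed. Scnn1a, the α subunit of the epithelial sodium channel, gave 836, 854 and 854 with CAS, 296, 336 and 328 with SPI and 242, 266 and 299.8 with WPH. The level of Scnn1a was 3.15-fold lower with WPH (limma adjusted p = 1.18e-06) and 2.65-fold lower with SPI (limma adjusted p = 1.28e-05). Of the 5, Trpc4, a receptor-operated cation channel, was higher without the block (log2 change 0.99, limma adjusted p = 0.00641, 0.234 with it). Of 13 channel anchors and kinases tested, 4 were higher and 1 was lower, of which 2 and 1 passed with the block. The lower one, Sgk1, the kinase that raises the number of epithelial sodium channels at the membrane, gave 996, 919.9 and 1029.7 with CAS, 375, 312 and 380.0 with SPI and 214, 248 and 288 with WPH, falling 3.93-fold from CAS to WPH (limma adjusted p = 1.00e-06). Sgk1 and Scnn1a thus lay highest with CAS, and the SPI and WPH arrays of Scnn1a overlapped. The median log2 changes with WPH over the tested genes of the 5 lists were 0.16, -0.64, 0.11, 0.44 and 0.20 in the order given, beside 0.06 over all 5606 probe sets tested. Over all genes of a list on the array, tested or not, they were 0.11, -0.13, -0.17, 0.22 and 0.24, so that the median of calcium release and calcium pumps changed sign.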

How the data were processed

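Each diet was measured on 3 Affymetrix rat genome arrays. The deposited intensity values are linear MAS 5.0 signals without detection calls, and the authors had scaled every array to a target of 500. The share of probe sets at 100 or more was 58.7 to 60.3% over the arrays, and precision is set by the 3 technical arrays per diet. The instrument settings files, also deposited, were read only for a time of day, in a line labelled as the hybridization date. It was taken from their block of wash and stain settings. Arrays within 30 minutes of the one before were taken as 1 round. The date was not used, so that arrays of different days could fall in the same round.

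Gene symbols came from the platform annotation, which gives a single gene for 7018 probe sets, more than 1 for 308 and no gene for 1473. All 125 channel probe sets had a gene identifier whose symbol in the RefSeq table was the same. The 59 Affymetrix controls were left out. Signals under 0.1 were set to 0.1 and log2 was taken, without further normalization. One limma model (version 3.58.1, R 4.3.3, eBayes with a variance trend) held all 3 diets, and p-values of each comparison were adjusted by the Benjamini-Hochberg method over the 5606 probe sets with a diet mean of at least 100. Every adjusted p is from limma unless the methods' t-test is named, and a probe set passed when it was under 0.05. The fit was tested on simulated data before use. Fold changes are ratios of the mean signals of 2 diets. Where all arrays of the dimmer diet were under 100, each was set to 100 and the fold is a lower bound. Where only some were, the fold is given with and without setting signals under 100 to 100. A gene of a list is represented by its brightest probe set over all arrays.

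The channel families and the lists of other genes were chosen with earlier results of these data known. Values on every array are given for the probe sets that passed in at least 1 comparison and for other tested probe sets of the same genes. At most 4 genes of each list are named, those with the largest change among the ones that passed. A few other channels were named after their values were seen, namely Kcnma1, Cacna1a, Cacna1g, Kcnh3, Kcnq3 and Kcnj11. Promoters came from a RefSeq table of the GRCr8 assembly that held 58 of the 78 genes. Alternatives concerned low values (a floor of 50, a pseudocount of 32, a filter of 200, no filter), scaling (median centring, quantile normalization), the model (without variance trend, with just the diets compared, with the replicate number or the wash round as a block), the methods' t-test, comparison within a round, and leaving out each array. Tables and figures were made in Python 3.11.15 (pandas 2.3.3, numpy 2.4.6, matplotlib 3.10.9).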

Additional observations from a re-analysis of the deposited data

How the results depend on the processing

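For WPH against CAS, a block for the wash round leaves WPH replicate 2 alone to be set against CAS. The wash round changed the counts most. With it as a block, 10 channel probe sets in place of 20 were higher with WPH than with CAS, 0 in place of 7 were higher with SPI than with CAS, and 1 in place of 2 was higher and 2 in place of 6 lower with SPI than with WPH. Over all 5606 probe sets the calls fell too, from 1174 to 731, from 673 to 100, from 565 to 352 and from 551 to 208 in the same order. The methods' t-test gave 12 higher for SPI against CAS and 10 lower for SPI against WPH at an unadjusted p under 0.05, and after Benjamini-Hochberg adjustment 3 higher for SPI against CAS and 1 higher and 2 lower for SPI against WPH. When each array was left out in turn, the number higher with SPI than with CAS ran from 4 to 8, the number higher with SPI than with WPH from 1 to 2 and the number lower from 3 to 6. The counts of 4 came without SPI replicate 1 or SPI replicate 3, the counts of 1 without SPI replicate 1, SPI replicate 2 or WPH replicate 2, and the counts of 3 without SPI replicate 1, WPH replicate 1 or WPH replicate 3. Apart from the adjusted t-test of SPI against CAS, given above, the shares over all probe sets are not given for these t-test and leave-out counts. These counts therefore show only how the channel calls moved, not how the channels stood beside all probe sets. The causes were not tested. Under every other alternative the 6 counts stayed within 1.5 times their value, and none of the calls of a channel probe set changed direction in any alternative run. The alternatives reuse the arrays that made the calls, so that a kept direction is no independent check. With 3 arrays of 1 pool per diet, no alternative speaks to the spread between rats.

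Replicate numbers are shared between the diets, but the deviations of same-numbered arrays from their diet means correlated at only -0.27 to 0.24, so that the numbers do not pair the samples. With the replicate block, 19 were higher and 3 lower with WPH than with CAS, 6 and 3 with SPI than with CAS, and 2 and 4 with SPI than with WPH. The shares over all probe sets with this block are not given, so that these counts are descriptive.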
